A study of Homo sapiens with 16 samples.

Results

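Plasminogen activation was followed through 6 genes, PLAU, PLAT, PLAUR, SERPINE2, SERPINB2 and SERPINB5, chosen by name among the 42665 gene names on the array. Every probe that carries 1 of these names was taken, which gave 8 probes. A probe entered the tests where at least 4 of the 16 arrays read it as well above background, which 6 probes of 5 genes did. Both SERPINB2 probes missed that limit.

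The cells were 16HBE, a human bronchial epithelial line immortalised with SV40 large T antigen and not tumorigenic. The groups were WT cells, with unedited MET, and ex14 cells, clone F, in which Cas9 editing at the splice donor makes MET mRNA skip exon 14. The ex14 cells are a single clone, so the edit and whatever else sets that clone apart cannot be told apart. All cells were starved of serum for 2 h. The WT+HGF and ex14+HGF groups then received HGF, the ligand of the MET receptor, at 20 ng/mL for 24 h, while the WT and ex14 groups received no agent. Each of the 4 groups had 4 arrays, laid out over 2 slides so that each slide held 2 arrays of every group. The study separated its replicates by a week of culture, but which array belongs to which week is not given in the sources used here.

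Plasmin is a serine protease that dissolves fibrin and cleaves matrix proteins and growth factor precursors. It is made from plasminogen by either of a pair of activators, urokinase (PLAU) and tissue plasminogen activator (PLAT). Urokinase is held at the cell surface by its receptor PLAUR, a lipid-anchored protein, and its activity is kept in check by serpins, inhibitors that trap the protease in a covalent complex. In epithelium the urokinase system is known for its part in migration and wound closure, and PLAU and PLAUR are textbook targets of ERK signalling and of AP-1.

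A few array probes carried much of what follows, and they are shown because each value below is the signal of such a stretch of 60 bases. Positions are in hg19, the build that the file headers name. The PLAU probe 2 lies on the plus strand at chr10:75674614-75674673. The PLAUR probe lies on the minus strand at chr19:44169498-44169557. The SERPINE2 probe, on the minus strand, spans chr2:224840597-224842295, so its ends lie on both sides of an exon junction.
PLAU probe 2: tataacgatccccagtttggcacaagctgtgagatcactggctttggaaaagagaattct
PLAUR: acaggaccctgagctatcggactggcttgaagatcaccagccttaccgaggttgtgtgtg
SERPINE2: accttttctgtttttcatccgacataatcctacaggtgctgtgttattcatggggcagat

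The other tested probes were PLAU probe 1 at chr10:75677050-75677109, the PLAT probe at chr8:42032812-42032871 and the SERPINB5 probe at chr18:61172218-61172277. No hg19 annotation was used here, so the exon or UTR under each probe is not stated.

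Values are log2 signals relative to the 75th percentile of the same array, so that 0 is a probe as bright as that percentile. They order the groups for a given probe but not the genes among themselves. A probe was called changed where limma gave a Benjamini-Hochberg adjusted p under 0.05 over all 34599 tested probes and the fold change exceeded 1.5. Before scaling, the 75th percentile lay between 139.5 and 213 intensity units on the WT and WT+HGF arrays and between 201.8 and 262.8 on the ex14 and ex14+HGF arrays. All 9 epithelial markers examined, EPCAM, CDH1 and KRT5 among them, were well above background on all 16 arrays. Their mean level lay between 4.77 and 4.87 on the WT arrays, 4.74 and 4.83 on the WT+HGF arrays, 4.52 and 4.59 on the ex14 arrays and 4.29 and 4.40 on the ex14+HGF arrays, so that it differed without overlap between genotypes and with HGF in ex14 cells. Its part in the results below was not tested. MET was read from its brightest tested probe, which lies outside the edited exon, so its level is no check of the edit. Its level was 4.97 ± 0.17 in WT and 5.10 ± 0.15 in ex14 cells (SD, n = 4). The arrays measured bulk RNA, in which fewer expressing cells and less RNA per cell cannot be told apart.

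PLAU was highest in ex14+HGF cells, lower in ex14 cells and lowest in WT cells with or without HGF. The probe 1 levels were 6.63, 6.45, 7.02 and 6.90 on the WT arrays and 6.77, 6.95, 6.71 and 7.07 on the WT+HGF arrays. They were 7.30, 7.39, 7.72 and 7.63 on the ex14 arrays and 7.92, 7.79, 8.40 and 8.06 on the ex14+HGF arrays. Every ex14 array lay above every WT and WT+HGF array, and every ex14+HGF array lay above all others, while the WT and WT+HGF arrays overlapped.

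Without HGF, PLAU rose 1.69-fold from WT to ex14 cells, a log2 change of 0.76 (SE 0.16, limma adjusted p = 0.00367). With HGF the rise from WT+HGF to ex14+HGF was 2.24-fold, a log2 change of 1.17 (SE 0.16, limma adjusted p = 0.00013). In that comparison the probe 1 change was 1.00 within slide 1 and 1.34 within slide 2, and both passed. Without HGF the change was 0.81 within slide 1 and 0.71 within slide 2, where it no longer passed (limma adjusted p = 0.107).

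Probe 2, which the array design assigns to another RefSeq transcript of PLAU, gave the same order of group means. Its levels ran from 1.79 to 2.55 in WT, 2.06 to 2.63 in WT+HGF, 2.60 to 3.09 in ex14 and 2.88 to 3.79 in ex14+HGF cells. With HGF the rise from WT to ex14 passed (2.09-fold, limma adjusted p = 0.00241). Within slide 1 this log2 change was 0.86 and did not pass (limma adjusted p = 0.0506), and within slide 2 it was 1.26 and passed (limma adjusted p = 0.0421). Without HGF the log2 difference of 0.58 did not pass (limma adjusted p = 0.0713), although every ex14 array lay above every WT array. It passed both limits at 0.60 with normexp background correction (limma adjusted p = 0.0113) and at 0.72 with scaling by the array median (limma adjusted p = 0.0456), within a range of adjusted p from 0.0099 to 0.272 over the settings other than leaving out arrays.

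HGF itself gave a smaller difference in PLAU. In ex14 cells the log2 difference at probe 1 was 0.53 (95% confidence interval 0.20 to 0.87) and did not pass (limma adjusted p = 0.097), although all 4 ex14+HGF arrays lay above all 4 ex14 arrays. In WT cells it was 0.13 (interval -0.21 to 0.46). The difference between these responses was 0.41 (interval -0.07 to 0.88), with an unadjusted p of 0.0886 in limma and an adjusted p of 1. At probe 2 the log2 difference with HGF was 0.49 in ex14 cells and 0.0097 in WT cells, and neither passed.

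PLAT, the activator best known for clearing fibrin in blood vessels, was lower in ex14 than in WT cells and gave the largest fold change among the members. Its probe is printed in 10 spots, of which 7 to 10 per array were usable, and log2 signals of spots on an array had a median SD of 0.074. The levels were 0.27, 0.70, 0.81 and 0.36 on the WT arrays and 0.54, 0.57, 0.63 and 0.93 on the WT+HGF arrays. They were -1.42, -1.30, -1.49 and -1.53 on the ex14 arrays and -0.63, -1.19, -0.85 and -1.19 on the ex14+HGF arrays. All 8 arrays of ex14 cells therefore lay below all 8 arrays of WT cells.

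Without HGF, PLAT fell by 1.97 on the log2 scale from WT to ex14 cells, or 3.93-fold (SE 0.15, limma adjusted p = 1.22e-06). With HGF it fell by 1.63, or 3.09-fold (SE 0.15, limma adjusted p = 6.07e-06). The changes were -1.85 and -2.10 within slides 1 and 2 without HGF, and -1.46 and -1.80 with HGF, and all 4 passed. PLAU and PLAT, the activators of the system, thus differed between the genotypes in opposite directions.

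The mean level of 7 listed fibroblast markers was lower on the ex14 and ex14+HGF arrays than on the WT and WT+HGF arrays. Their mean level lay between -4.74 and -4.11 on the WT arrays, -4.66 and -4.32 on the WT+HGF arrays, -5.45 and -5.29 on the ex14 arrays and -5.37 and -5.33 on the ex14+HGF arrays. Of the 7, COL1A1 and PDGFRB were well above background on all 16 arrays and LUM on 8. The remaining markers COL1A2, COL3A1, DCN and PDGFRA were above background on none. Most of the list was thus not detected. Its mean lay near or below the lowest signal detected on an array, which had a median of -4.41 over the arrays. Of 6 listed leukocyte markers, the 5 on the array were well above background on all 16 arrays. Their mean lay between -1.07 and -0.56 on the WT arrays and between -1.34 and -0.74 on the ex14 arrays. Of 5 endothelial markers, CDH5 and VWF were above background on all arrays, CLDN5 on 1, and KDR and PECAM1 on none. What these signals mean for the identity of the cells was not tested. The part of other cells in the PLAT result was not tested either.

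HGF left PLAT below the limits. The log2 difference was 0.47 in ex14 cells (95% confidence interval 0.15 to 0.80, limma adjusted p = 0.133), with all ex14+HGF arrays above all ex14 arrays. In WT cells it was 0.13 (interval -0.20 to 0.45), and the arrays overlapped. The difference of the responses was 0.34 (interval -0.12 to 0.80, limma adjusted p = 1).

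**Figure D1:**
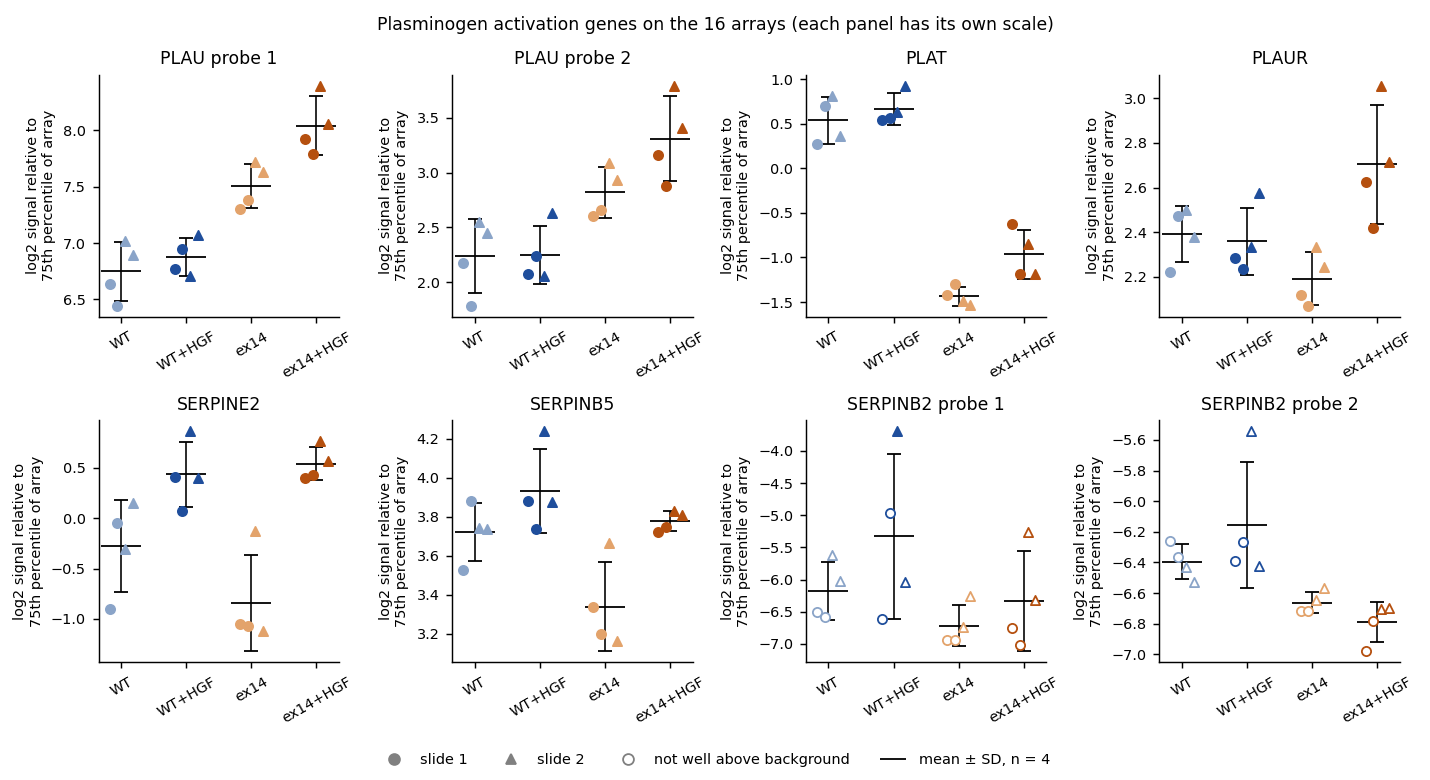
Log2 signal of each of the 8 member probes relative to the 75th percentile of the array (y axis, a separate scale per panel) in the 4 groups (x axis); each point is an array, circles are slide 1, triangles slide 2, open points are not well above background, and black marks are the mean ± SD of 4 arrays. PLAU probe 1 separates the ex14 and ex14+HGF arrays from the WT and WT+HGF arrays upwards, and PLAT does so downwards. At PLAU probe 2 the ex14 and WT+HGF arrays overlap. SERPINE2 is higher with HGF in ex14 cells, and SERPINB2 is above background on 1 array.

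PLAUR, the urokinase receptor, differed with HGF in ex14 cells, but by less than the fold limit. Its levels were 2.22, 2.47, 2.498 and 2.38 on the WT arrays, 2.29, 2.24, 2.34 and 2.58 on the WT+HGF arrays, 2.12, 2.07, 2.33 and 2.25 on the ex14 arrays and 2.63, 2.42, 3.06 and 2.72 on the ex14+HGF arrays. The 4 ex14+HGF arrays lay above all ex14 arrays, and the other groups overlapped.

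The HGF difference of PLAUR in ex14 cells was 0.51 on the log2 scale, or 1.42-fold (SE 0.13, limma adjusted p = 0.0482). It passed the limit on p but not the limit on fold, so it was not called. It missed the limit on p too with scaling by the array median (0.35, limma adjusted p = 0.273) or by spike-ins (0.44, limma adjusted p = 0.3), with no filter on dim probes (limma adjusted p = 0.107) and with the compared groups alone (limma adjusted p = 0.169). Leaving out each of the 16 arrays in turn, the difference lay between 0.39 and 0.61, with a limma adjusted p from 0.0293 to 0.16. It passed both limits in 1 of these fits, without ex14+HGF replicate 2, the lowest array of its group (0.61, limma adjusted p = 0.0293). Within slides the difference was 0.43 on slide 1 and 0.60 on slide 2, and missed the limit on p on each (limma adjusted p = 0.3624 and 0.3761). In WT cells it was -0.03 (95% confidence interval -0.31 to 0.24). The difference of the responses was 0.54 (interval 0.15 to 0.93), with an unadjusted p of 0.00974 in limma and an adjusted p of 0.856. Between genotypes PLAUR differed by -0.20 without HGF (limma adjusted p = 0.335) and by 0.34 with HGF (limma adjusted p = 0.0755), and neither passed.

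SERPINE2, or protease nexin-1, inhibits urokinase and thrombin at the cell surface and in the matrix. It was the member that passed both limits for HGF in ex14 cells. Its levels were -1.06, -1.08, -0.13 and -1.12 on the ex14 arrays and 0.40, 0.43, 0.76 and 0.57 on the ex14+HGF arrays. On the WT arrays they were -0.91, -0.04, -0.30 and 0.15, and on the WT+HGF arrays 0.41, 0.07, 0.86 and 0.40. All ex14+HGF arrays lay above all ex14 arrays, whereas the WT+HGF and WT arrays overlapped. Ex14 replicate 3 stood apart from the other ex14 arrays, which spanned -1.12 to -1.06.

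HGF raised SERPINE2 2.61-fold in ex14 cells, a log2 change of 1.39 (SE 0.25, limma adjusted p = 0.0088). The change was 1.48 within slide 1 and 1.29 within slide 2, where with 2 arrays a group it did not pass (limma adjusted p = 0.195 and 0.371), as no probe on the array did. Leaving out each of the 16 arrays in turn, it stayed between 1.29 and 1.63 and passed each time. In WT cells the ratio was 1.64 and did not pass (log2 difference 0.71, 95% confidence interval 0.17 to 1.25, limma adjusted p = 0.92). The difference of the responses was 0.68 (interval -0.09 to 1.44, limma adjusted p = 1).

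Between genotypes SERPINE2 did not pass. Without HGF the log2 difference of ex14 from WT cells was -0.57 (SE 0.25, limma adjusted p = 0.142), and with HGF it was 0.11 (limma adjusted p = 0.828). The value without HGF depended on single arrays, at -0.81 without ex14 replicate 3 (limma adjusted p = 0.0262) and -0.78 without WT replicate 1 (limma adjusted p = 0.0441), and in both cases it passed.

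SERPINB5, or maspin, is a serpin of epithelial cells that does not act as a classical protease inhibitor. Its levels were 3.53, 3.88, 3.75 and 3.74 on the WT arrays, 3.88, 3.74, 4.24 and 3.88 on the WT+HGF arrays, 3.34, 3.20, 3.67 and 3.16 on the ex14 arrays and 3.72, 3.75, 3.83 and 3.81 on the ex14+HGF arrays. The ex14+HGF arrays lay above the ex14 arrays, and no other pair of compared groups was free of overlap. The log2 difference with HGF was 0.44 in ex14 cells (SE 0.13, limma adjusted p = 0.0944) and 0.21 in WT cells. The ex14 cells differed from WT cells by -0.38 without HGF (limma adjusted p = 0.0522) and by -0.16 with HGF (limma adjusted p = 0.46). None of these passed.

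SERPINB2, known as PAI-2, inhibits urokinase and lies near SERPINB5 on chromosome 18. Its probe 1, at chr18:61570202-61570261, was well above background on 1 array, WT+HGF replicate 3, at -3.69. The lowest signal detected by any probe on an array had a median of -4.41 over the arrays. Probe 2, at chr18:61538974-61539033, was well above background on 0 of 16 arrays. No change is given for SERPINB2. In the comparisons with WT+HGF the probe 1 bound fell under 1, and in all others both groups were below background.

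**Figure D2:**
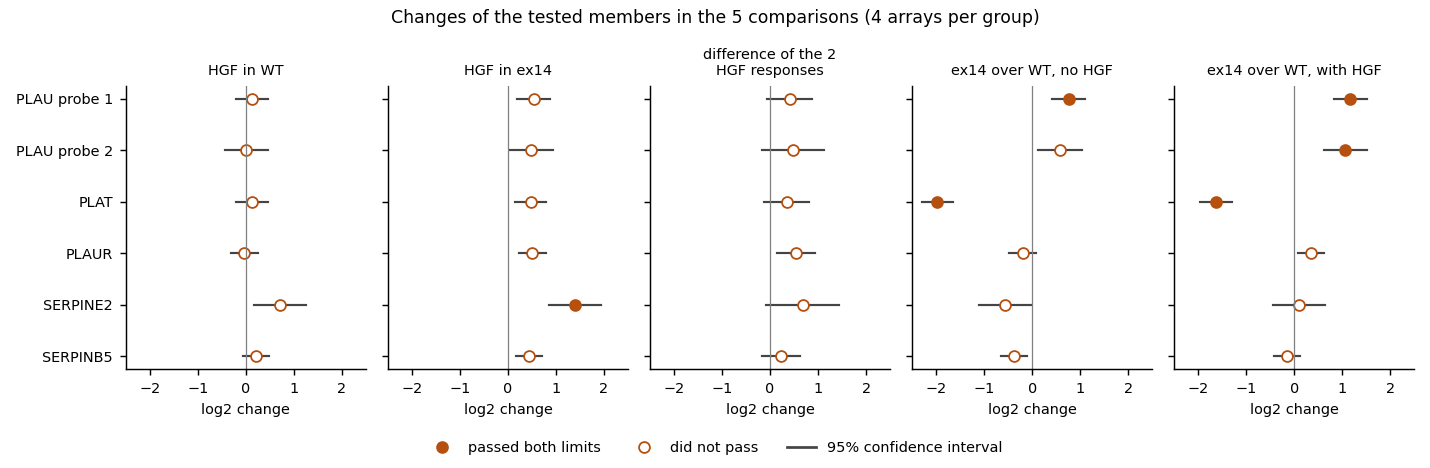
Log2 change (x axis) of the 6 tested member probes (y axis) in the 5 comparisons, with lines for the 95% confidence interval of the limma fit over 16 arrays; filled points passed both limits. Filled points are SERPINE2 for HGF in ex14 cells, PLAU probe 1 and PLAT between genotypes without HGF, and PLAU probes 1 and 2 and PLAT between genotypes with HGF.

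The counts of member probes called stood beside those over the whole array. For HGF in ex14 cells 1 of the 6 tested member probes was called, where 693 of all 34599 tested probes were, or 2%. For HGF in WT cells 0 were called among the members and 0 in all, 0%, although 1694 probes had an unadjusted p under 0.05 in limma. Between genotypes 2 of 6 member probes were called without HGF and 3 of 6 with HGF, beside 9.4% and 10.8% of all tested probes. The 3 with HGF were PLAU probes 1 and 2 and PLAT, so 2 of them are of the same gene. For the difference of HGF responses 0 member probes and 0 probes in all were called, with 1600 at an unadjusted p under 0.05 in limma. With 6 probes, of genes chosen with earlier results of these data known, these counts describe the members and no more. The HGF comparison and the genotype comparison share the ex14 arrays, so their values are given side by side and not correlated.

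The balance of raised and lowered probes over the whole array depended on the scaling. Of the probes called for HGF in ex14 cells 52.2% were raised, against 24.1% after scaling by the array median and 41.7% after scaling by spike-ins. Between genotypes 48.0% of those called without HGF and 49.0% with HGF were raised, against 71.8% and 66.0% by the median and 64.4% and 56.5% by spike-ins. By the median the log2 change of the median probe for HGF in ex14 cells moved from 0.05 to -0.11, and that for the genotype without HGF from -0.02 to 0.12. The calls of PLAU probe 1, PLAT and SERPINE2 held under each of these scalings.

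The 32 other serpins on the array had 16 tested members. HGF raised 1 of them in ex14 cells and lowered 0, where 2% of all tested probes were called. The median log2 change was 0.09 beside 0.05 over all tested probes. The raised gene was SERPINA1, alpha-1-antitrypsin, the main inhibitor of neutrophil elastase, at 2.28-fold (limma adjusted p = 0.00143). Its level was 1.71 ± 0.26 in ex14 and 2.90 ± 0.21 in ex14+HGF cells (SD, n = 4). Between genotypes without HGF 1 serpin rose and 1 fell, beside 9.4% of all tested probes called. These 2 calls became 0 with normexp background correction and on either slide alone, and 1 with quantile, array median or spike-in scaling. SERPINB9, an inhibitor of granzyme B, rose 2.26-fold (limma adjusted p = 0.000211), and SERPING1, the C1 inhibitor, fell by 0.64 on the log2 scale (limma adjusted p = 0.00498). The SERPINB9 level was -3.79 ± 0.34 in WT cells (SD, n = 4). That is near the lowest signal detected on an array, which had a median of -4.41 over the arrays. Without WT replicate 3 or ex14 replicate 3 the list had 1 such call in place of 2, and without ex14 replicate 3 it had 2 calls for HGF in ex14 cells in place of 1. Like SERPINE2, SERPINA1 rose with HGF in ex14 cells, while in WT cells its log2 difference was 0.32 and did not pass. Of the serpins near SERPINB5 and SERPINB2 on chromosome 18, SERPINB8 and SERPINB13 were tested, and their log2 differences with HGF in ex14 cells were 0.95 and -0.82 without passing.

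A list of 25 genes of the plasmin system and its neighbours had 19 tested. In ex14 cells HGF raised 1 and lowered 1, beside 2% of all tested probes called, with a median log2 change of -0.05. THBD, or thrombomodulin, which turns thrombin towards activating protein C, rose 3.21-fold (limma adjusted p = 0.0119). TFPI, the inhibitor of the tissue factor pathway, fell by 0.66 on the log2 scale (limma adjusted p = 0.0105). Without ex14 replicate 2 the list had 1 call in place of 2. Between genotypes without HGF 2 rose and 3 fell, with a median of -0.0013, beside 9.4% of all tested probes called. These 5 calls became 3 on slide 1 alone, 0 on slide 2 alone and 7 with array median scaling. F2RL1, which encodes a protease-activated receptor, rose by 0.59 on the log2 scale. The other raised gene was the thrombin receptor gene F2R, for which no size is given because it was well above background on 1 of 4 WT arrays and on 0 of 4 WT+HGF arrays. LRP1, the endocytic receptor that clears complexes of activators with serpins, F3 (tissue factor) and PLGRKT, a plasminogen receptor, fell by 0.82, 0.78 and 0.75 on the log2 scale. With HGF 3 rose and 3 fell between genotypes, beside 10.8% of all tested probes called.

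PLAUR belongs to the LY6/uPAR family of proteins with a compact disulphide-rich fold, of which 22 of 24 listed genes were tested. In ex14 cells HGF raised CD59 and LY6K and lowered LYPD5 and LYPD6B, beside 2% of all tested probes called. The median log2 change over the family was 0.0025. CD59, an inhibitor of the complement attack complex, rose by 0.59 on the log2 scale, or 1.51-fold, beside a difference of 0.51 for PLAUR. LYPD5, a neighbour of PLAUR on chromosome 19, fell by 0.66. The 4 calls depended on single arrays, with 0 left without ex14 replicate 2 or 4, 1 without ex14+HGF replicate 2, 3 or 4 and 2 without ex14 replicate 1. Between genotypes without HGF 3 rose and 0 fell, namely LYPD1 at 2.65-fold, LY6G5C at 1.93-fold and LY6D at 1.58-fold, and the median was 0.08. With HGF 2 rose and 0 fell. Of all tested probes 9.4% were called between genotypes without HGF and 10.8% with HGF. For HGF in WT cells no gene of the 3 lists passed, as no probe on the array did.

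**Figure D3:**
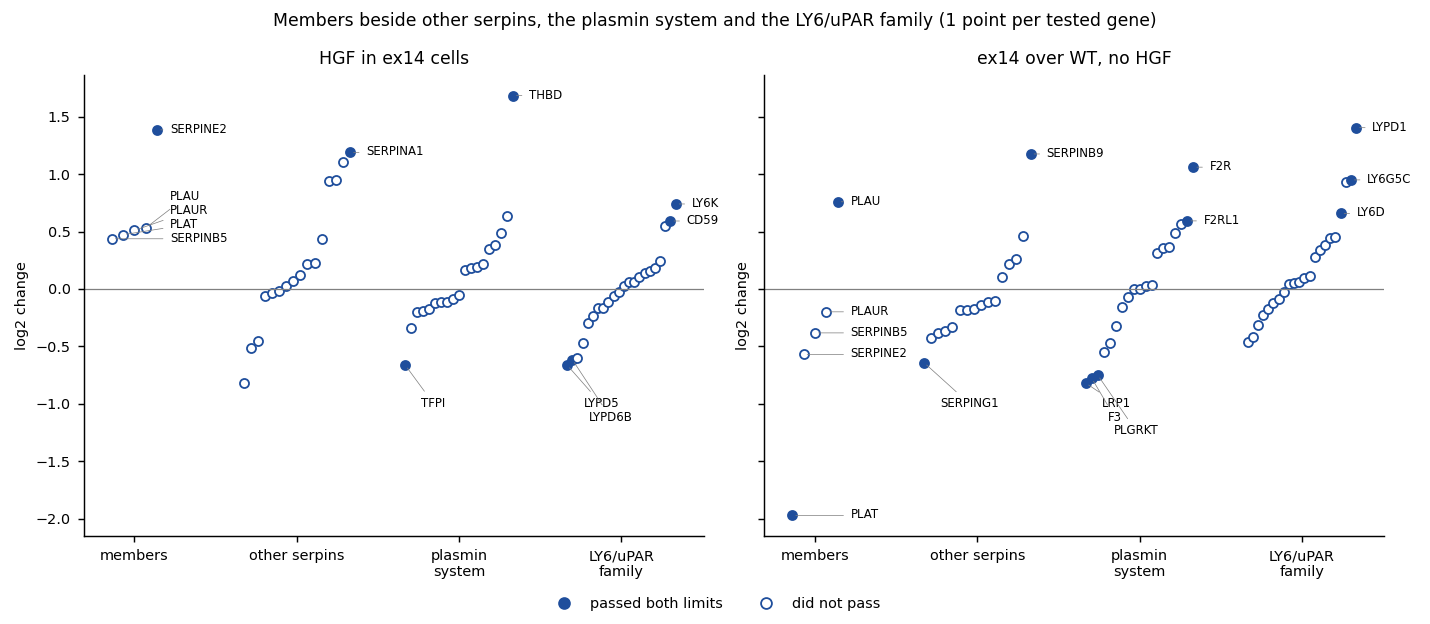
Log2 change (y axis) of the 5 tested members and of each tested gene of the 3 lists (x axis), for HGF in ex14 cells on the left and for ex14 over WT cells without HGF on the right; filled and named points passed both limits, and members are named throughout. SERPINE2 stands with SERPINA1 and THBD among the raised genes on the left, and PLAT is the lowest point on the right.

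Pairs of members differed in how closely their levels followed each other over the 16 arrays. SERPINE2 and SERPINB5 had a Pearson r of 0.89, and 0.89 also after the group means were removed. PLAU and PLAUR had an r of 0.55 over all arrays and 0.72 within groups. PLAU and PLAT had an r of -0.76 over all arrays and 0.18 within groups. These are descriptions over arrays that share slides, and arrays of a slide deviated together from their group means, with a median r of 0.20 for arrays of the same slide row and -0.20 for arrays of different slides over all tested probes.

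Among 17828 named genes, those most like PLAU over the 16 arrays were HID1 (r = 0.98), PPP1R15A (0.97) and IL4R (0.97). AOX1 (0.93), CA13 (0.91) and RASA3 (0.91) were most like PLAUR, and CCL3, C1orf226 and CDA (0.98 each) were most like PLAT. With the group means removed, the r with PLAT was 0.64 for CCL3, 0.73 for C1orf226 and 0.58 for CDA, and for the genes named with the other members it lay between 0.79 and 0.93. For SERPINE2 they were HMGA1 (0.97), TMEM200A (0.95) and NAV3 (0.94), and for SERPINB5 they were S1PR1 (0.93), KRT34 (0.93) and QSOX1 (0.92). TMEM200A and NAV3 differed with HGF in ex14 cells by 1.64 and 1.49 on the log2 scale, beside 1.39 for SERPINE2.

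**Figure D4:**
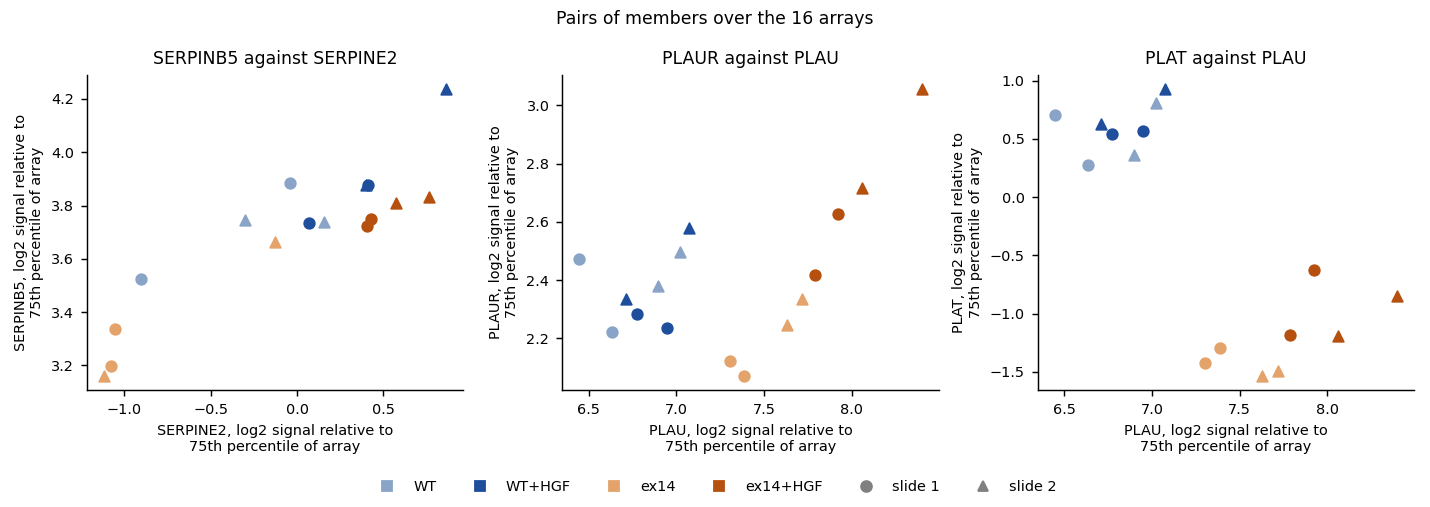
Log2 signal relative to the 75th percentile of the array for pairs of members (SERPINB5 against SERPINE2, PLAUR against PLAU, PLAT against PLAU); each point is 1 of the 16 arrays, coloured by group, with circles for slide 1 and triangles for slide 2. SERPINE2 and SERPINB5 lie along a line (r = 0.89), PLAUR follows PLAU within groups (r = 0.72), and PLAT splits the arrays by genotype.

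The promoters of PLAUR, SERPINE2 and SERPINB5 are shown because the levels of SERPINE2 and SERPINB5 followed each other and the ex14+HGF arrays lay above the ex14 arrays for all 3 genes. That separation held for PLAU probe 1 and PLAT too, so it is not particular to these 3 genes. No PLAT window was searched. Each promoter shown is the 250 bases before the RefSeq start, in GRCh38.p14, read in the direction of the gene, and differs in build from the probe positions above. Capitals mark matches, on either strand, to any of 4 motifs. The AP-1 motif searched was TGANTCA. The motif of the ETS and PEA3 factors was AGGAAG, called ETS/PEA3 here. The SP1 box was searched as GGGCGG. The TATA box, which places the start of transcription, was searched as TATAAA. The PLAUR window is chr19:43670170-43670419, minus strand. The SERPINE2 window, of the upstream of its 2 listed starts, is chr2:224038641-224038890, minus strand. The SERPINB5 window is chr18:63476708-63476957, plus strand.
PLAUR promoter: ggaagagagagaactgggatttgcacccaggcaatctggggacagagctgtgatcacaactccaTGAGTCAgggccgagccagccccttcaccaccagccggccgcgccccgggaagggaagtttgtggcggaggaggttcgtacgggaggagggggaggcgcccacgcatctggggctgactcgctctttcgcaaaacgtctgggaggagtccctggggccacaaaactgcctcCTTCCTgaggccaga
SERPINE2 promoter: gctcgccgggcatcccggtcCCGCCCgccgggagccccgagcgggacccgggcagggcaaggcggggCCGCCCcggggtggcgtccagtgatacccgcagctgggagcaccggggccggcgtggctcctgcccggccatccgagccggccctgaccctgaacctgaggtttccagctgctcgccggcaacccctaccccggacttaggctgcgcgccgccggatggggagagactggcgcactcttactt
SERPINB5 promoter: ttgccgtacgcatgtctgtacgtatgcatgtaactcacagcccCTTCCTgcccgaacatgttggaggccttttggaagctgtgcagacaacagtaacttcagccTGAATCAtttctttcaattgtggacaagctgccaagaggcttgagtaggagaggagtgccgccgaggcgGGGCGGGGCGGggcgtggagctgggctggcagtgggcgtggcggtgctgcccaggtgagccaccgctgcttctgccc

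In the PLAUR window the AP-1 match began 186 bases and the ETS/PEA3 match 15 bases before the start. The SERPINE2 window held 2 SP1 boxes and none of the other motifs, and the window of its other start held 1 SP1 box. SERPINB5 held an AP-1 match 146 bases and an ETS/PEA3 match 207 bases before the start, with 2 SP1 boxes that overlap each other. Of the PLAU windows, that of the upstream start held none of the motifs, and that of the downstream start, chr10:73910882-73911131, held 1 ETS/PEA3 match and 3 SP1 boxes. The SERPINB2 window held 1 match each to AP-1, ETS/PEA3 and the TATA box, the latter 30 bases before the start. Over all 35116 windows of 250 bases, 6.573% held the AP-1 letters, 28.71% the ETS/PEA3 letters, 42.64% the SP1 box and 10.72% the TATA box. Such matches describe the letters in these windows and are not evidence of binding.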

How the data were processed

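Total RNA was labelled with Cy3 and hybridised by the authors to 16 single-colour Agilent arrays with probes of 60 bases. The deposited intensity values are the processed signals of Feature Extraction 10.7.3.1, which per the file headers are background-subtracted and detrended, with no scaling between arrays. A second deposited file, with every sample in it, repeated these intensities at all 1007616 values compared. The normalization between arrays is not given in the sources used here.

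Groups came from the sample descriptions. The titles of the 4 WT+HGF samples read YY in place of WT, and their group rests on the description and genotype fields. The replicate numbers follow slide and slide row. From each array's log2 signals its own 75th percentile was taken away, outlier spots were dropped and a probe's remaining spots were averaged. The tests took 34599 of 58201 probes, each read as well above background by 4 arrays or more. Group means over all 16 arrays were fitted and moderated with limma 3.58.1 (lmFit, eBayes) in R 4.3.3, with the packages data.table (version 1.17.8) and jsonlite (version 2.0.0), and adjusted over all tested probes. Calls needed an adjusted p under 0.05 together with a fold change over 1.5. The fit was tested on simulated data. The simulated arrays varied independently with no slide effect, so that test does not cover the deviations that arrays of a slide share. The number of arrays limits the precision. Figures used Python 3.11.15, matplotlib 3.10.9 and pandas 2.3.3.

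The members, gene lists, motifs and tests were chosen with earlier results of these data known. A gene was represented by its brightest tested probe. Genes called in at least 1 comparison were named from each list, up to 8 per list, and for each member the 3 genes with the highest Pearson r. SERPINB8 and SERPINB13 fall outside that rule and were chosen after their values were seen, for their position. Alternatives were the background correction, scaling, probe filter, outlier spots, slide and slide row as blocks, each slide alone, the compared groups alone, the trend and robust options, the fold limit, and leaving out each array.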

Additional observations from a re-analysis of the deposited data

Results flagged for a closer look

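The SERPINE2 level of ex14 replicate 3 was -0.13, far from the other ex14 arrays, which lay between -1.12 and -1.06. Its gap to the nearest array divided by the range of the group was 0.936, above Dixon's 95% critical value for 4 arrays. It was the 1 flag among 32 groups of 4 arrays examined, and chance flags about 1 group in 20. The same array also had the highest SERPINB5 level of its group, at 3.67.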

How the results depend on the processing

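Besides 16 fits that each left out an array, 14 alternative settings were run. Over both kinds of fit, for the 5 tested genes 733 results kept their direction and their side of the limits, 4 gained and 3 lost the call and 5 changed sign. None of the sign changes was in a called result. The count of member probes called for HGF in ex14 cells was 1, but 0 on slide 1 alone, 0 on slide 2 alone and 2 with no limit on the fold. It was 1 to 2 when each array was left out, with 2 without ex14+HGF replicate 2. For the genotype without HGF it was 2, but 1 on slide 2 alone and 3 with normexp or array median scaling. For the genotype with HGF it was 3, but 2 on slide 1 alone and 4 without the filter on dim probes, where the added probe was 1 of SERPINB2 at background on all arrays. PLAU for HGF in WT cells was -0.069 on slide 2 alone, and PLAUR 0.019. Leaving out arrays moved PLAUR for HGF in WT cells between -0.11 and 0.0078, and SERPINE2 for the genotype with HGF between -0.016 and 0.25.

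With the replicate block of slide and row, the counts of member probes called stayed at 1, 0, 2, 3 and 0 for HGF in ex14 cells, HGF in WT cells, the genotype without and with HGF, and the difference of responses. Rows did not pair the arrays beyond the slide, with a median r of 0.20 within a row and 0.21 between rows of a slide. Over all probes, 693 calls for HGF in ex14 cells became 411 with normexp background correction, 246 with the compared groups alone, 998 without the fold limit and 0 on either slide alone. They were 346 without ex14 replicate 2, 374 without ex14 replicate 4, 377 without ex14+HGF replicate 3 and 442 without ex14+HGF replicate 4, and between 521 and 977 without any other array. For the genotype without HGF 3252 became 1489 with normexp, 1426 and 841 on slides 1 and 2, and 6349 without the fold limit. With HGF 3749 became 1814, 1670, 1562 and 7125. Of the lists, 39 counts moved, all lists reaching 0 for HGF in ex14 cells on single slides, and the LY6/uPAR family also in the compared groups alone. For the genotype with HGF the other serpins went from 2 to 0 on either slide alone, the plasmin system from 6 to 2 on slide 2 alone, and the LY6/uPAR family from 2 to 6 without the fold limit. Causes were not tested, and dim signal limits what can be said of SERPINB2.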
